A study of Mus musculus with 2 samples.

Results

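Col3a1, Col5a1, Col5a2 and Col5a3, the 4 genes that encode the chains of type III and type V collagen, were followed through the cells of P7 mouse limb tendon. They were chosen by symbol from the 27998 genes of the deposited count matrices, with no threshold on a measured value. All 4 were present in both libraries. One library was labelled wild-type and the other mutant, and each held the pooled cells of 2 pups at postnatal day 7. In the mutant pups the floxed TGFβ type II receptor gene was deleted with ScxCre (Tgfbr2 f/-;ScxCre), a Cre driven by the regulatory region of scleraxis, which is active in tendon cells but not uniformly so in the embryo. The control library carries the genotype label wild type, whereas its description calls it Het, so its exact genotype cannot be told from the labels. All mice of the study also carried the ScxGFP tendon reporter and the Ai14 Rosa26-tdTomato Cre reporter. Cells were released enzymatically from tendons of fore- and hindlimbs whose surfaces had not been scraped, so that the sheath layers were kept. With 1 library per genotype there was no replicate, so no p-value is given, and the intervals below are exact 95% intervals for counting error only.

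Tendon is built mainly from fibrils of type I collagen. Type III collagen, a homotrimer of the Col3a1 chain, and type V collagen, assembled from the Col5a1 and Col5a2 chains and in some tissues a Col5a3 chain, co-assemble with type I collagen. Type V collagen helps to start fibrils and keeps them thin, and type III collagen is abundant in sheath tissue, in skin and vessels and in healing tendon. Inherited loss of either collagen weakens connective tissue, as in the Ehlers-Danlos syndromes.

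In GRCm38, Col3a1 (ENSMUSG00000026043) spans bases 45311538 to 45349706 of chromosome 1 on the plus strand. Col5a2 (ENSMUSG00000026042) lies next to it on the minus strand, from 45374321 to 45503282. The ends of these neighbours point toward each other with 24614 bases between them. Col5a1 (ENSMUSG00000026837) runs from 27886425 to 28039514 on the plus strand of chromosome 2, and Col5a3 (ENSMUSG00000004098) from 20770050 to 20815067 on the minus strand of chromosome 9. Since the counts of these genes were higher in Scx-high cells of the mutant library, the 250 bases before the start of 3 of them are shown, from the RefSeq table of build GRCm38.p6, which had an entry for 3 of the 4 members and not for Col5a2. Capitals mark matches on either strand to the E-box CANNTG, the letters recognised by basic helix-loop-helix factors such as Scx, and to the Smad box CAGAC. The windows are chr1:45311288-45311537 on the plus strand, chr2:27886175-27886424 on the plus strand and chr9:20815068-20815317 on the minus strand, each upstream of the annotated first exon.
Col3a1: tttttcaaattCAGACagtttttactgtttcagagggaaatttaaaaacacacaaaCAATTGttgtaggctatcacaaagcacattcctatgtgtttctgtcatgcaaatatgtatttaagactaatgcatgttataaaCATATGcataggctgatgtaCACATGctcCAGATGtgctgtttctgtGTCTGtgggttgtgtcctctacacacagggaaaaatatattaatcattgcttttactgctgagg
Col5a1: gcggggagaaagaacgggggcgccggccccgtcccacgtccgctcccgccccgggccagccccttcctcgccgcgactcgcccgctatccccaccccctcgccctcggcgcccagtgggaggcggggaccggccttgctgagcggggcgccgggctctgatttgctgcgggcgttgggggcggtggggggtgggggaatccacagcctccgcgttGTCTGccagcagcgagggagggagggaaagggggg
Col5a3: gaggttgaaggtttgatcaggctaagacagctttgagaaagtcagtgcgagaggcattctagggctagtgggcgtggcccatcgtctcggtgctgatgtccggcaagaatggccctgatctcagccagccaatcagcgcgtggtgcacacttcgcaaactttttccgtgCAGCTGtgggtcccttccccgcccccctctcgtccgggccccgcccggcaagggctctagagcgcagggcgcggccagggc
The Col3a1 window held 4 E-boxes and 2 Smad boxes, that of Col5a1 held 0 and 1, and that of Col5a3 held 1 and 0. Matches of the 2 motifs did not overlap. Of 32851 promoter windows of this length in the table, 66.2% held an E-box and 42.2% a Smad box, so a match in either is common. Base composition set the genes apart, with 35.2% G and C in the Col3a1 window, 76.4% in that of Col5a1 and 62.8% in that of Col5a3, against a median of 52.4%. These matches are a description of letters and not of binding.

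The wild-type library held 2364 cells with a median of 3866.5 unique molecular identifiers (UMIs, 1 per captured RNA molecule), and the mutant library 2592 cells with a median of 2828. Only 2 cell barcodes occurred in both. Cells with 30 or more Scx UMIs per 10000 were called Scx-high. Per the study, counted Scx includes transcripts of the ScxGFP reporter, so here a Scx level is that of gene and reporter together and not of the endogenous gene. Of the cells below that level, those with 5 or more UMIs over Ly6a, Cd34, Dpt and Lum were called Scx-low fibroblasts. Cells with 5 or more UMIs over a mural, immune, endothelial or neural list, or with over 50% haemoglobin UMIs, had been set aside first. There were 1157 Scx-high cells and 538 Scx-low fibroblasts in the wild-type library, and 231 and 1490 in the mutant library. Markers that the rule did not use went with these names, less clearly in the mutant library. In wild-type Scx-high cells 7 tenocyte genes, among them Tnmd and Fmod, summed to 16890 UMIs per 1000000 UMIs of the class (CPM). They summed to 11511 CPM in mutant Scx-high cells, against 923 and 2819 CPM in Scx-low fibroblasts of the wild-type and mutant library. The 7 fibroblast genes summed to 12569 and 5115 CPM in Scx-low fibroblasts, against 1407 and 2666 CPM in Scx-high cells. Tgfbr2 itself was at 30.5 CPM in wild-type and 46.1 CPM in mutant Scx-high cells, but 3′ tags need not come from the deleted part of the gene, so this checks no label.

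Within Scx-high cells the counts of all 4 collagen genes were higher in the mutant library, while Col1a1, the main fibril collagen gene of tendon, was lower. The study proposes that cells of mutant tendons still positive for ScxGFP were newly recruited, some having weak or no Cre reporter signal. The Scx-high classes of the 2 libraries therefore need not hold cells of the same origin, and the part of that in the ratios was not tested. Col3a1 stood at 538 CPM (517 to 559) in the wild-type library and at 4576 CPM (4448 to 4706) in the mutant library, an 8.51-fold higher level (8.11 to 8.93). Col5a1, which encodes the chain needed for every common type V trimer, went from 53.3 CPM (47.0 to 60.2) to 809 CPM (756 to 865), a ratio of 15.2 (13.2 to 17.5). The gap was smaller for Col5a2, the partner chain, at 270 CPM (255 to 285) and 1073 CPM (1012 to 1137), a ratio of 3.98 (3.67 to 4.31). These intervals cover counting error alone, so their distance between the libraries is no test of a difference. Col5a3, the least counted chain, was at 7.26 CPM (35 UMIs) and 57.4 CPM (61 UMIs), a ratio of 7.91 with a wide interval of 5.14 to 12.4. Its wild-type level could not be set apart from that of free RNA, so this is a ratio of counted levels and not of what the cells express. Col1a1 was at 73895 CPM in wild-type and 20588 CPM in mutant Scx-high cells, a ratio of 0.279 (0.275 to 0.282). All 4 members, Col5a3 with that limit, were at least 2-fold higher in the mutant library, as were 813 of the 7372 genes with 50 or more UMIs in the comparison (11.0%), and none was at least 2-fold lower, as 5.78% of genes were. The median gene was shifted by 0.28 on the log2 scale in the same direction, and relative to it the log2 ratio of Col3a1 was 2.81 in place of 3.09.

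**Figure D1:**
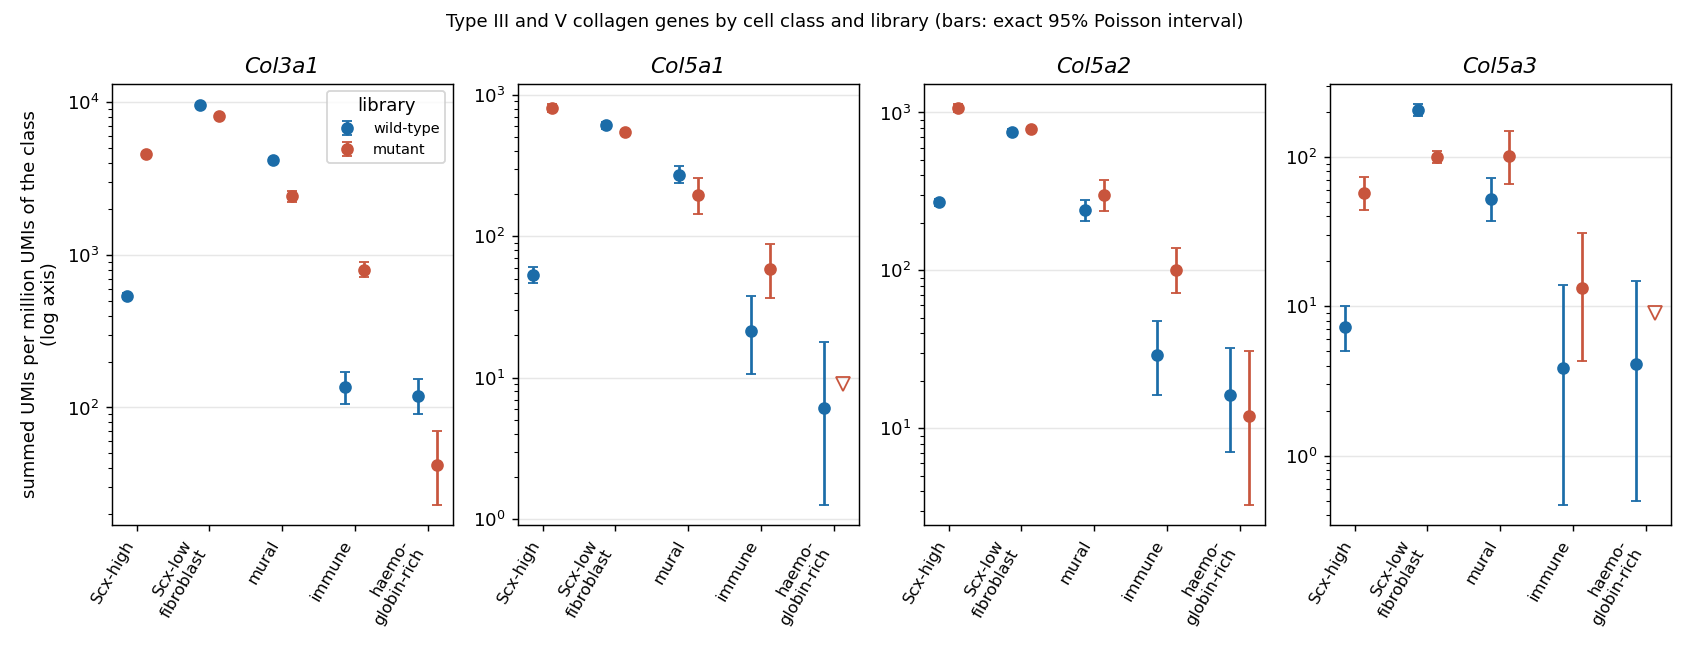
Summed UMIs per 1000000 UMIs of each cell class (CPM, log axis) for the 4 collagen genes in the wild-type (blue) and mutant (red) library, with exact 95% Poisson intervals as bars and open triangles for the level of 3 UMIs where the count was 0. In Scx-high cells each red point lies far above the blue one (Col3a1 4576 against 538 CPM), whereas in Scx-low fibroblasts the points lie close together for all but Col5a3. In haemoglobin-rich cells haemoglobin takes 95.6% and 96.9% of the UMIs that the levels are scaled to.

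The difference was spread over the cells and did not come from a few of them. The median wild-type Scx-high cell held 2.07 Col3a1 UMIs per 10000 and the cell at the 90th percentile 15.6, whereas the median mutant Scx-high cell held 33.2 and that at the 10th percentile 2.12. Col3a1 was detected in 58.3% of wild-type and 90.5% of mutant Scx-high cells as counted. Drawing 1500 UMIs from every cell, with 84 and 19 cells too shallow for it, gave shares of 38.2% (35.3 to 41.2) and 85.8% (80.4 to 90.2). Thinned shares of cells with Col5a1 were 6.71% (5.29 to 8.38) and 48.1% (41.2 to 55.1), as against 13.4% and 65.4% unthinned. For Col5a2 they were 31.1% and 65.6%, as against 57.5% and 78.4%. Free RNA in the droplets gives some UMIs to cells that do not make a gene, and immune cells served as the measure of it. Of immune cells thinned in the same way, 9.93% of the wild-type and 18.0% of the mutant library had a Col3a1 UMI, 1.32% and 5.41% had one of Col5a1, and 2.65% and 3.60% one of Col5a2. Their median depths were 2415 and 1704 UMIs, against 4291 and 4195 in Scx-high cells. The Scx-high shares of these 3 genes lay above the immune shares in both libraries. For Col5a3 the thinned share in wild-type Scx-high cells, 1.49% (0.855 to 2.41), could not be set apart from the immune share of 0.662% (0.0168 to 3.63), so the low level there is read as background. The share in mutant Scx-high cells, 4.72% (2.28 to 8.503), had an interval that also overlapped that of mutant immune cells, 0.901% (0.0228 to 4.92). Their summed Col5a3 levels had intervals that did not overlap, at 57.4 CPM (43.9 to 73.7) and 13.3 CPM (4.31 to 31.0). These rest on 61 and 5 UMIs.

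**Figure D2:**
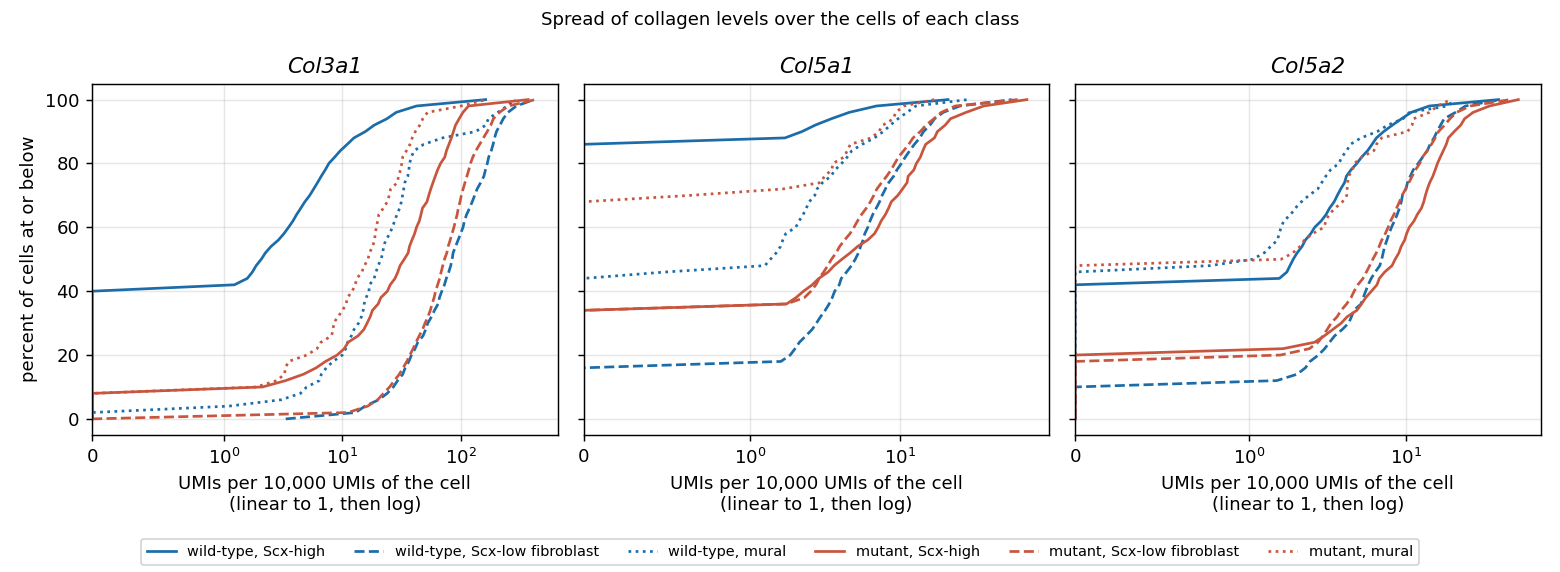
Percent of cells at or below each level of Col3a1, Col5a1 and Col5a2, in UMIs per 10000 UMIs of the cell (linear to 1, then log), for Scx-high cells (solid), Scx-low fibroblasts (dashed) and mural cells (dotted) of the wild-type (blue) and mutant (red) library. The whole Col3a1 curve of mutant Scx-high cells (median 33.2) is displaced to the right of the wild-type one (median 2.07) and lies left of both Scx-low fibroblast curves over most of its height.

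Some markers of other cells moved with these levels. Of mutant Scx-high cells 71 (30.7%) also held 5 or more UMIs over the 4 fibroblast genes, against 36 (3.11%) of wild-type ones. Without those cells Col3a1 was at 464 CPM in the wild-type and 4017 CPM in the mutant library, Col5a1 at 44.1 and 818 CPM, and Col5a2 at 258 and 999 CPM. Those remaining cells did not lack fibroblast transcripts. Over them 7 fibroblast markers that the rule did not use summed to 1333 CPM in wild-type and 2404 CPM in mutant ones. The gap was carried by Mfap5, a microfibril protein, at 41.9 CPM in 13.6% and 1330 CPM in 60% of cells. Col14a1 was also higher, at 262 and 413 CPM. Lower in mutant cells were Igfbp6 (746 and 486 CPM), Gsn (179 and 147 CPM) and Clec3b (91.2 and 21.9 CPM). Pdgfra and Pi16, with few UMIs, were lower as well. Over all Scx-high cells the 7 summed to 1407 and 2666 CPM, Mfap5 being at 55.4 and 1543 CPM. There Col14a1, Pdgfra and Pi16 were also higher in the mutant library, while Igfbp6, Gsn and Clec3b were lower. A small set of 11 mutant cells (4.76%), against 1 wild-type cell, held 3 or more UMIs of skeletal muscle genes, with the 5 muscle genes, of which 2 were detected, summing to 328 CPM over all mutant Scx-high cells and Myog alone to 315 CPM. These 11 cells held 8 Col3a1 UMIs in all, and without them the mutant level was 4767 CPM. The 6 mural check genes, all detected, summed to 2059 CPM in mutant and 308 CPM in wild-type Scx-high cells, Acta2 being at 844 and 230 CPM, while the 6 defining mural genes summed to only 13.2 and 8.29 CPM. The 7 cycling genes summed to 695 and 285 CPM. The gap was seen in cycling and in other cells: Col3a1 was at 725 CPM in cycling and 518 CPM in other Scx-high cells of the wild-type library, and at 5155 and 4426 CPM in the mutant library. The part of the fibroblast and mural check genes in the result was not tested.

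Across the bins of counted Scx, Col3a1, Col5a1 and Col5a2 were far lower at the top than at the bottom in the wild-type library, and of these 3 only Col3a1 was lower there in the mutant library. Free RNA holds Scx too: a Scx UMI was found in 71.9% of wild-type immune cells and in 13.8% of mutant ones. Their summed levels were 1531 and 74.4 CPM. The wild-type sum need not be the free RNA level of a typical cell. In that library Scx was at 567 CPM in endothelial cells and at 333 CPM in Scx-low fibroblasts. The bins under 30 are therefore not matched between the libraries and are read within each library alone. Over mesenchymal cells, in order of Scx UMIs per 10000 (0, up to 10, 10 to 30, 30 to 100, 100 to 300, and 300 or more), wild-type Col3a1 was at 9645, 8559, 7140, 1378, 520 and 314 CPM. The drop was steepest across the Scx-high threshold. In the mutant library the same bins gave 8185, 6417, 5420, 4456, 4029 and 5196 CPM, so that the cells with the most Scx held about as much Col3a1 as those with 10 to 30. Col5a1 behaved likewise in wild-type cells, at 563, 565, 537, 139, 52.0 and 29.3 CPM. In mutant cells it was at 504, 583, 835, 555, 901 and 965 CPM, highest at the top but with a drop at the threshold from 835 CPM (735 to 944) to 555 CPM (480 to 639). Col5a2 was at 722 CPM without Scx and 242 CPM at the highest Scx in wild-type cells, and at 731 and 1227 CPM in mutant cells. Col5a3 was at 217 CPM without Scx in wild-type cells, with 6 UMIs in all at the highest Scx, and at 98.4 and 94.6 CPM in mutant ones. In the top bin, of 334 wild-type and 65 mutant cells, all 4 were higher in the mutant library. The share of all genes higher there was not computed, so this count cannot be read as particular to the members. Col1a1 ran the other way, from 10536 to 73593 CPM in wild-type cells and from 10556 to 20658 CPM in mutant ones. The median depth of the bins ran from 2867 to 4775 UMIs in the wild-type and from 2748 to 5971 UMIs in the mutant library, and was highest in the top bin of both. The make-up of the bins changed along Scx as well. Cells with 5 or more fibroblast UMIs were 72.3, 79.5, 33.0, 8.21, 3.19 and 0.898% of the wild-type bins, in that order. They were 79.9, 73.5, 53.7, 47.7, 20.5 and 20% of the mutant bins. The part of this in the collagen levels along Scx was not tested. Only 52 wild-type and 51 mutant cells lay near the threshold, with 20 to under 40 Scx UMIs per 10000.

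**Figure D3:**
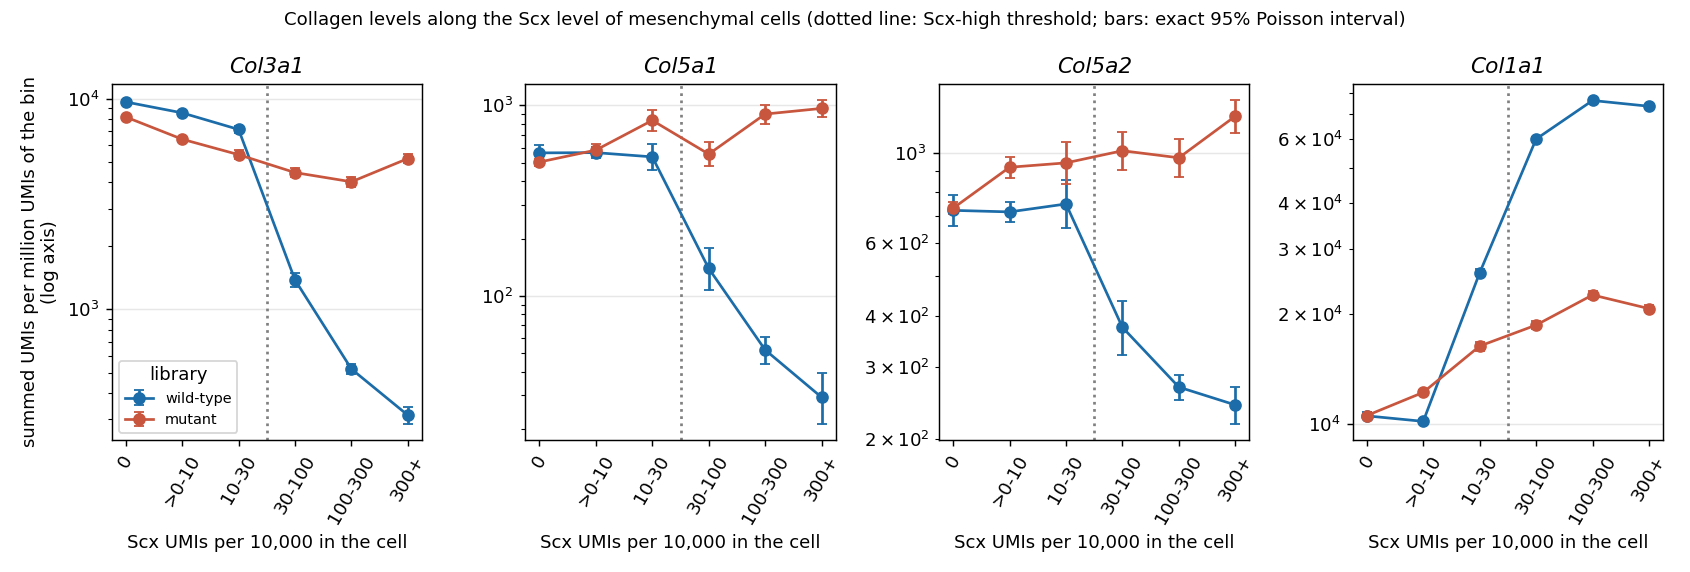
Summed CPM (log axis) of Col3a1, Col5a1, Col5a2 and Col1a1 in mesenchymal cells binned by their Scx UMIs per 10000, with exact 95% Poisson intervals; the dotted line marks the Scx-high threshold. The blue wild-type curves of the first 3 genes drop beyond the line (Col3a1 from 7140 to 314 CPM) by far more than the red mutant ones, of which Col3a1 (5420 to 4456 CPM) and Col5a1 (835 to 555 CPM) drop just beyond it and then return to 5196 and 965 CPM at the top, whereas Col1a1 climbs more steeply in blue.

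In the class of Scx-low fibroblasts 3 of the 4 members had ratios near 1 between the libraries. Col3a1 was at 9662 CPM (9533 to 9792) in wild-type and 8154 CPM (8074 to 8235) in mutant cells, a ratio of 0.844 (0.830 to 0.858). Col5a1 was at 609 and 545 CPM, a ratio of 0.895 (0.838 to 0.957). Both were slightly lower in the mutant library over the class as a whole. Among its cells with a Pi16 UMI, Col5a1 was at 712 CPM in the wild-type and 708 CPM in the mutant library. Among those without, it was at 491 CPM in both. Col3a1 was at 11375 and 10375 CPM with a Pi16 UMI and at 7712 and 7429 CPM without. Col5a2, at 751 and 788 CPM, gave a ratio of 1.05 whose interval, 0.990 to 1.11, includes equal levels. The exception was Col5a3, at 207 CPM (188 to 227) and 99.6 CPM (90.9 to 109), a ratio of 0.481 (0.423 to 0.548), or -1.06 on the log2 scale. With 10 in place of 5 fibroblast UMIs required for the class the log2 ratio was -0.93, short of 2-fold. Col1a1 was at 9866 and 11040 CPM. Thus 1 of the 4 members was at least 2-fold lower, as were 4.60% of the 8696 genes tested, and none was at least 2-fold higher, as 4.67% of genes were. The 7 fibroblast markers that the class rule did not use summed to 12569 CPM in wild-type and 5115 CPM in mutant Scx-low fibroblasts, and the 7 tenocyte markers to 923 and 2819 CPM, so the make-up of this class was not the same in the libraries. The study identifies the main cluster of mutant cells, enriched for Ly6a, as tenocytes that dedifferentiated. It traced the cells without ScxGFP in mutant tendons to tenocytes by the Cre reporter. Against wild-type tenocytes it reports higher Col3a1 and Col5a1 in that cluster. The mutant class here was not matched to that cluster. The rule reads 4 genes and not the origin of a cell, so these ratios between the libraries need not compare cells of the same kind. The part of that in the ratios was not tested.

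Set side by side within a library, the 2 classes were far apart in wild-type tendon and close in mutant tendon. In the wild-type library Scx-low fibroblasts held 18.0-fold (17.2 to 18.7) more Col3a1 than Scx-high cells, 11.4-fold (9.99 to 13.1) more Col5a1, 2.78-fold (2.59 to 2.995) more Col5a2 and 28.5-fold (20.2 to 41.4) more Col5a3, the last over a Scx-high level that was not set apart from free RNA. All 4 were at least 2-fold higher, as were 17.9% of the 8173 genes tested, and none was at least 2-fold lower, as 5.82% of genes were. In the mutant library the ratios were 1.78 (1.73 to 1.84) for Col3a1, 0.673 (0.623 to 0.728) for Col5a1, 0.734 (0.687 to 0.785) for Col5a2 and 1.73 (1.33 to 2.30) for Col5a3. There Col5a1 and Col5a2 were higher in the Scx-high cells. None of the 4 passed 2-fold in either direction, as 10.9% of the 8107 genes tested did upward and 4.96% downward. Taken as a mean of per-cell CPM, Col3a1 and Col5a3 did pass it, with log2 ratios of 1.08 in place of 0.83 and 1.25 in place of 0.79. They also did so without Scx-high cells of 5 or more fibroblast UMIs, an alternative chosen after seeing the data, at 1.02 and 1.01. Col1a1 was 7.49-fold higher in Scx-high cells than in Scx-low fibroblasts of the wild-type library and 1.86-fold higher in those of the mutant library.

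The order of Col3a1 levels over the classes differed between the libraries. In wild-type tendon it ran from Scx-low fibroblasts (9662 CPM) to the other Scx-low cells (5119 CPM, 4939 to 5305), mural cells (4190 CPM, 4043 to 4342), Scx-high cells (538 CPM) and immune cells (135 CPM, 106 to 171). Below these came 22 endothelial cells (70.9 CPM, 26.0 to 154), whose interval overlapped that of immune cells. The 88 haemoglobin-rich cells were not ranked, since haemoglobin took 95.6% of their UMIs and Col3a1 stood at 119 CPM with and 2679 CPM without it. In mutant tendon Scx-high cells (4576 CPM) came next after Scx-low fibroblasts and the other Scx-low cells (5445 CPM, 5306 to 5587). They lay above the 56 cells of the neural class (2567 CPM, 2320 to 2832) and mural cells (2415 CPM, 2229 to 2613), whose intervals overlapped. Mural cells, the pericytes and smooth muscle of vessels, had in the wild-type library a Col3a1 median of 21.2 UMIs per 10000 but a 90th percentile of 133, against 16.4 and 41.2 in the mutant library, so a minority of the 146 wild-type mural cells carried most of the class's Col3a1. Their Col1a1 was likewise at 19.2 UMIs per 10000 in the median cell and at 215 at the 90th percentile. The mutant over wild-type ratios in mural cells were 0.576 (0.528 to 0.629) for Col3a1, 0.712 (0.511 to 0.975) for Col5a1, 1.24 (0.936 to 1.63) for Col5a2 and 1.93 (1.12 to 3.26) for Col5a3. Immune cells held 799 CPM of Col3a1 in the mutant library, against the 135 CPM above. The 301 UMIs behind it came from 36 of 188 cells, and 1 cell reached 117 UMIs per 10000. The 25 mutant endothelial cells were at 317 CPM (199 to 480). The neural class had 1 cell in the wild-type library, so no comparison was made for it. For Col5a2 the wild-type order differed from that of Col3a1, since mural cells at 241 CPM (207 to 280) and Scx-high cells at 270 CPM (255 to 285) had overlapping intervals. The Col5a1 level of mutant Scx-high cells, 809 CPM, was the highest of all classes in either library.

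Counts of 3′ tags do not grow with transcript length, so the genes were set against Col1a1 by UMIs with no scaling for length. Such ratios are of counted RNA and not of collagen, and are read by comparing classes. For every 1000 Col1a1 UMIs, wild-type Scx-high cells held 7.28 (7.00 to 7.56) of Col3a1, 0.721 of Col5a1, 3.65 of Col5a2 and 0.0982 of Col5a3. Mutant Scx-high cells held 222 (215 to 229), 39.3, 52.1 and 2.79. Scx-low fibroblasts, mural cells and immune cells of both libraries held more of each of the 4 per Col1a1 UMI than wild-type Scx-high cells did. For wild-type immune cells the Col5a2 and Col5a3 values rest on 15 and 2 UMIs. Their intervals overlapped those of wild-type Scx-high cells. The Col3a1 value was 979 in wild-type and 739 in mutant Scx-low fibroblasts, 643 and 1010 in mural cells, and 28.4 and 734 in immune cells. The immune value of the wild-type library lay above that of the Scx-high cells there and far below that of the fibroblasts. Over all cells the ratio was 76.0 and 574, with Col3a1 at 3194 and 6276 CPM.

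Counted together, the UMIs of type I (Col1a1, Col1a2), type III and type V collagen give shares of counted collagen RNA in a class, not of collagen protein. Type I took 99.3% of them in wild-type Scx-high cells, type III 0.442% (0.426 to 0.460) and type V 0.272% (0.259 to 0.285). In mutant Scx-high cells type III took 11.6% (11.3 to 11.96) and type V 4.94% (4.73 to 5.15), leaving 83.4% to type I. Scx-low fibroblasts were at 34.8% type III and 5.64% type V in the wild-type library and at 29.1% and 5.12% in the mutant library. The type V share of mutant Scx-high cells therefore lay close to that of fibroblasts, and the type III share lay between. Within type V the UMIs of the genes were not in the same proportion in each class. Per Col5a2 UMI there were 0.198 (0.172 to 0.226) Col5a1 UMIs in wild-type Scx-high cells and 0.754 (0.690 to 0.825) in mutant ones, against 0.810 (0.754 to 0.871) and 0.692 (0.658 to 0.727) in Scx-low fibroblasts. Of type V UMIs, Col5a3 made up 13.2% in wild-type and 6.95% in mutant Scx-low fibroblasts, and 2.20% and 2.96% in Scx-high cells.

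**Figure D4:**
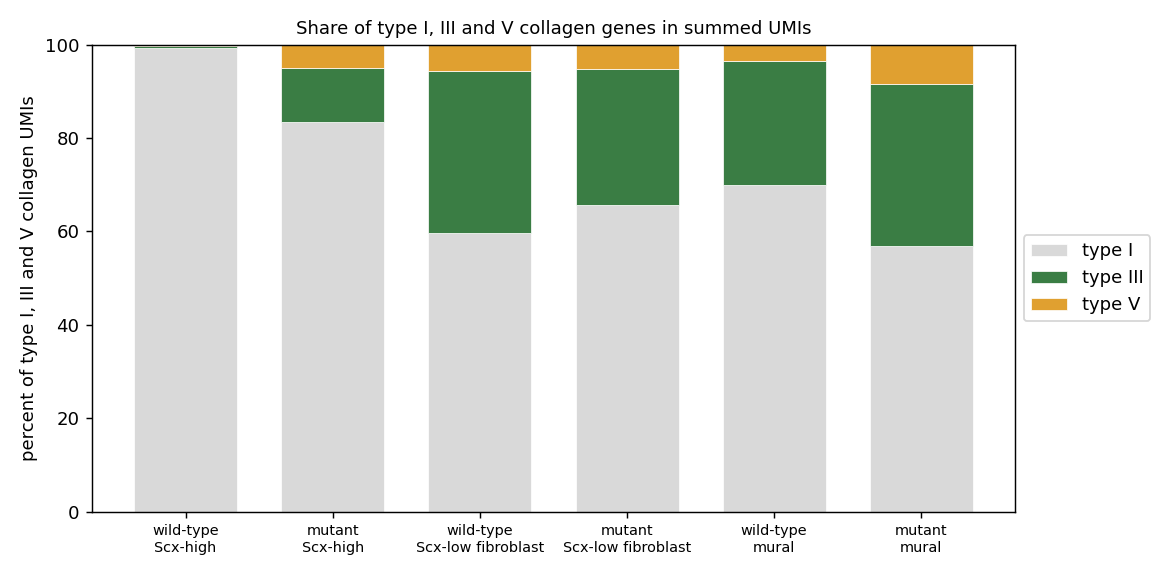
Percent of the summed type I, III and V collagen UMIs that each type took in Scx-high cells, Scx-low fibroblasts and mural cells of both libraries (stacked to 100%). Types III and V are barely visible in wild-type Scx-high cells (0.442% and 0.272%) and take 11.6% and 4.94% in mutant ones.

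Subgroups within the classes also differed. Scx-low fibroblasts with a Pi16 UMI, a gene of adventitial fibroblasts, held more Col3a1 than those without, at 11375 against 7712 CPM in the wild-type library and 10375 against 7429 CPM in the mutant library. For Col5a1 these levels were 712 against 491 CPM and 708 against 491 CPM, so the same step was seen in both libraries. Cells with a Pi16 UMI were 286 of the 538 wild-type and 340 of the 1490 mutant Scx-low fibroblasts. The part of this in the ratios between the libraries was not tested. Wild-type Scx-high cells with 3 or more UMIs of Col2a1, the type II collagen gene, held less of the well-counted members. Their Col3a1 was at 355 CPM (335 to 376) and that of the other Scx-high cells at 927 CPM (880 to 976). Col5a1 was at 28.3 and 106 CPM, and Col5a2 at 237 and 340 CPM. Of the 1157 wild-type Scx-high cells 706 were Col2a1-positive, and of the 231 mutant ones only 13. In these 13 cells Col3a1 was at 2743 CPM, against 4677 CPM in the rest. Among Col2a1-low Scx-high cells Col3a1 was thus at 927 CPM in the wild-type and 4677 CPM in the mutant library. Col5a1 was at 106 and 831 CPM in them, and Col5a2 at 340 and 1103 CPM. The part of this unlike make-up in the ratios between all Scx-high cells was not tested. Scx-low fibroblasts with 3 or more UMIs of Tnmd, a tenocyte membrane protein, came to 55 wild-type and 350 mutant cells. In them Col3a1 was at 9991 and 7199 CPM, against 9624 and 8503 CPM in the other Scx-low fibroblasts. Their Col1a1 was at 18037 and 16314 CPM, against 8913 and 9115 CPM, so the step between these subgroups was larger for Col1a1 than for Col3a1.

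In single mutant Scx-high cells the 3 well-counted members went together. Of the 231 cells, 149 held both Col3a1 and Col5a1, or 98.7% of the Col5a1-positive ones, and 176 held both Col3a1 and Col5a2. Spearman's rho across these cells, which share 1 library and include the 11 muscle-marker cells, was 0.635 for Col3a1 with Col5a1, 0.720 for Col3a1 with Col5a2 and 0.661 for Col5a1 with Col5a2. In the 1157 wild-type Scx-high cells, where most counts were 0 to 3, the same values were 0.367, 0.293 and 0.194. Col3a1 and Col1a1 went together in wild-type Scx-low fibroblasts (0.714 over 538 cells) and less closely in mutant ones (0.338 over 1490 cells).

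Over the 12 sums of 6 classes in 2 libraries, Loxl1, a lysyl oxidase-like enzyme of elastic fibres, had the pattern most like that of Col3a1, with a Pearson correlation of 0.990 on the log2 scale of CPM plus 10, among 3746 genes. It was followed by Col5a1 (0.976), Nbl1 (0.973), C1qtnf2 (0.972) and Vcan (0.964). For Col5a1 the nearest genes were Col3a1, Loxl1 (0.967), Aspn (0.965), C1qtnf2 (0.963) and Nbl1 (0.952). Those of Col5a2 were Ccdc80 (0.960), Mfap2 (0.960), Mdk (0.960), Tmem39a (0.948) and Abhd14a (0.947), with Col3a1 further off at 0.858. The 5 genes nearest to Col5a2 were thus not those nearest to its partner chain Col5a1. The 2 chains were still alike, with a correlation of 0.899. Of the 3746 genes, Col5a2 ranked 32 in likeness to Col5a1, and Col5a1 ranked 58 in likeness to Col5a2. Genes used by the class rule were left out of this ranking. The 6 classes include haemoglobin-rich cells, where haemoglobin took 95.6% and 96.9% of the UMIs, so all other genes had low CPM there. These 12 sums share 2 libraries and their free RNA, and the correlations are descriptions.

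The other genes of collagen fibrils went in both directions in Scx-high cells. Over all 7372 genes tested there, 11.0% were at least 2-fold higher in the mutant library and 5.78% lower. Beside these shares 1 gene of a short list says little about the list. Of 7 other fibril-forming collagen genes 6 were tested, and 5 were at least 2-fold lower in the mutant library: Col11a2 at 0.125, Col2a1 at 0.131, Col1a2 at 0.260, Col1a1 at 0.279 and Col11a1 at 0.403 of the wild-type level. Only Col27a1, a minor collagen known from cartilage, was higher, 8.85-fold. Their median log2 ratio was -1.89, whereas that of the 4 members was 3.04 and that of all genes 0.28. Of the FACIT and type VI collagens, which coat or link fibrils, 1 of 7 tested was at least 2-fold lower (Col9a2, at 0.317, on 92 UMIs) and none at least 2-fold higher, with Col14a1 at 1.52 and Col12a1 at 1.24. Among 4 basement membrane collagens Col4a1 was 2.63-fold higher and Col4a2 1.90-fold.

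Of 12 proteins that bind fibrils, 3 were at least 2-fold higher and 4 lower in mutant Scx-high cells. In this comparison 11.0% of all genes tested were higher and 5.78% lower. Postn, a matrix protein of healing tissue, was 21.0-fold higher (19.4 to 22.7), Aspn, a small leucine-rich proteoglycan, 18.8-fold (16.1 to 22.1) and Fn1, fibronectin, 6.09-fold (5.77 to 6.43). Sparc, a collagen-binding protein, was at 0.321, Dcn at 0.446 and Fmod at 0.462 of the wild-type level, so the proteoglycans of this list did not move one way. Of 16 tested genes that modify, cleave or cross-link procollagen, 3 were at least 2-fold higher and 7 lower. Loxl1 was 6.79-fold higher (5.79 to 7.98), Plod2, a lysyl hydroxylase, 5.94-fold (5.00 to 7.06) and P4ha2, a prolyl hydroxylase subunit, 4.35-fold (2.82 to 6.68). The other prolyl hydroxylase subunit, P4ha1, was at 0.156, the procollagen C-proteinase enhancer Pcolce2 at 0.185 and Crtap at 0.321. Of 4 collagen receptor genes tested, Itga11, an integrin chain for fibrillar collagen, was 3.23-fold higher and Ddr2 at 0.445.

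In Scx-low fibroblasts 2 of 6 other fibril-forming collagens tested were at least 2-fold higher and 1 lower in the mutant library, 4 of 12 fibril partners were higher and 1 lower, and 1 of 17 processing genes was higher and 3 lower. Of 6 FACIT and type VI collagens 1 was higher (Col12a1, 2.12-fold), and none of 4 basement membrane collagens or 5 receptors passed 2-fold. Over all 8696 genes tested in this class, 4.67% were at least 2-fold higher and 4.60% lower. Kera was 3.81-fold, Comp 2.34-fold, Fmod 2.32-fold and Postn 2.21-fold higher in the mutant library, and Tnxb, a matrix protein that spaces fibrils, was at 0.305. Among the fibril-forming collagens Col11a1 was 2.28-fold and Col27a1 2.11-fold higher, and Col11a2 was at 0.225. Lox, which cross-links collagen, was 2.27-fold higher, and Pcolce2 and P4ha2 were at 0.271 and 0.477. Loxl1, Aspn and Fn1, which stood out with the members in Scx-high cells, were at 1.06, 0.746 and 1.07.

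From Scx-high cells to Scx-low fibroblasts of the wild-type library the genes of these lists went both ways. At least 2-fold higher and lower were 1 and 5 of 6 other fibril-forming collagens and 4 and 6 of 12 fibril partners. Of 16 processing genes 2 were higher and 7 lower, and of 7 FACIT and type VI collagens 0 and 4. Of 4 basement membrane collagens 2 were higher and 0 lower. Over all 8173 genes tested the shares were 17.9% and 5.82%. The higher genes of the lists included Tnxb (27.1-fold), Aspn (23.1-fold), P4ha2 (13.7-fold), Loxl1 (7.99-fold), Postn (6.60-fold), Col4a1 (5.79-fold) and Col27a1 (5.48-fold). In the mutant library the same ratios were 11.9 for Tnxb, 0.913 for Aspn, 1.51 for P4ha2, 1.25 for Loxl1, 0.694 for Postn, 1.51 for Col4a1 and 1.31 for Col27a1. Apart from Tnxb, these genes had ratios between 0.694 and 1.51 in the mutant library. Those of the members lay between 0.673 and 1.78. Of the 8107 genes tested there, 10.9% were at least 2-fold higher and 4.96% lower. Since the list genes were named for a high wild-type ratio, their smaller mutant ratios are no separate result.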

How the data were processed

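Limb tendon cells of 2 P7 libraries, 1 labelled wild-type and 1 mutant, were profiled with 10x Genomics 3′ chemistry. The authors deposited raw UMI counts per gene and cell, made with Cell Ranger (version 1.2.0 in the submitters' processing notes, a later one in the study's methods), aligned to mm10 with default settings and filtered on total UMIs per cell. All barcodes were used, with 903 to 15968 UMIs per cell, and no doublet was removed in the main analysis. Cells were classed by the rule given in the report. Counts were summed per class and library, scaled to UMIs per 1000000 UMIs of the class (CPM), and compared as ratios with exact conditional intervals; shares have exact Clopper-Pearson intervals and levels exact Poisson ones. UMIs from the same droplets share capture and free RNA, so the intervals cover counting error only. A gene was counted as tested with 50 or more UMIs over both sides, and as higher or lower past 2-fold; a count of 0 was set to 3 UMIs. The ratio and interval were run on simulated independent Poisson counts, which hold no variation between cells or libraries. That run checks the calculation and not the error of these data. Of each list the text names, per comparison, mainly the 3 tested genes with the largest ratio in each direction, and for the likeness the 5 nearest genes with 500 or more UMIs. The members and lists were chosen with earlier results of these data known. Alternatives changed the thresholds of the classes, the filter on cells (500 genes, under 10% mitochondrial UMIs), doublet calls (Scrublet in Scanpy 1.11.5, expected 2%), the summary and the scaling. Python 3.11.15, NumPy 2.4.6 and SciPy 1.17.1 were used.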

Additional observations from a re-analysis of the deposited data

Results flagged for a closer look

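In the mutant over wild-type contrast the log2 ratios of 3 of the 4 members had opposite signs in the 2 mesenchymal classes. The share of all genes with opposite signs was not computed, so the count cannot be read as particular to the members. In Scx-low fibroblasts the median gene was at -0.03. The log2 ratio of Col3a1 was 3.09 in Scx-high cells and -0.24 in Scx-low fibroblasts, that of Col5a1 was 3.93 and -0.16, and that of Col5a3 was 2.98 and -1.06. The Scx-low ratios of Col3a1 and Col5a1, 0.844 and 0.895, were near 1, and 29.8% and 36.9% of tested genes had lower ones. The make-up of that class was not the same in the libraries. With 1 library per genotype the difference between the classes was not tested. The wild-type Scx-high level of Col5a3 could not be set apart from that of free RNA.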

How the results depend on the processing

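Values are log2 ratios. None of the alternatives split Scx-high cells by Col2a1. Of the 12 alternatives for Scx-high cells, mutant over wild-type, 2 changed the fibroblast threshold and could not move the ratios. A further 2 were chosen after seeing the data. Col3a1 (3.09) and summed type V (2.55) kept their direction and stayed past 2-fold under all 12. They were 2.63 and 2.38 with an Scx threshold of 15, 3.35 and 2.70 with 60, 2.81 and 2.30 as a mean of per-cell CPM, 2.83 and 2.30 without the 20 most abundant genes in the total, and 2.81 and 2.27 centred on the median gene. Col3a1 was 3.22 without called doublets. For Scx-low fibroblasts over Scx-high cells of the wild-type library (Col3a1 4.17, type V 2.25), the values were 3.69 and 2.07 with a threshold of 15, 3.81 and 1.89 without the abundant genes, and 3.76 and 1.84 when centred. Col3a1 was 4.33 with a threshold of 60, 4.23 with a fibroblast threshold of 10 and 4.30 without doublets. In the mutant library (0.83 and -0.44) they were 0.75 and -0.53 with a threshold of 60, 1.08 and -0.35 per cell, and 0.74 and -0.53 when centred. Col3a1 was 0.78 without the abundant genes. Of 2 alternatives chosen after seeing the data, leaving out muscle-marker cells gave 0.78 and leaving out Scx-high cells with 5 or more fibroblast UMIs gave 1.02. Col5a3 there (0.79) also passed 2-fold per cell (1.25) and without the latter cells (1.01). In Scx-low fibroblasts, mutant over wild-type, Col3a1 (-0.24) was -0.22 and -0.27 with fibroblast thresholds of 3 and 10, -0.29 with no exclusion of other classes and -0.22 when centred, and type V (-0.13) was -0.26 per cell. The Col5a3 value there (-1.06) passed 2-fold under 9 of 10 alternatives and was -0.93 with a fibroblast threshold of 10, and Col5a2 (0.07) kept its sign under 9 of 10 and was -0.07 per cell. With a minimum of 20 in place of 50 UMIs, tested collagen receptors went from 1 to 2 higher and from 1 to 3 lower in Scx-high cells. In Scx-low fibroblasts FACIT and type VI collagens went from 1 to 3 higher. The shares of all genes at that minimum were not computed.

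Scrublet called 26 wild-type and 8 mutant cells (1.10% and 0.309%), few enough that the mutant call may have missed doublets. Col5a3 rests on 35 and 61 UMIs in Scx-high cells. No paired analysis was possible because each group holds 1 library. Library preparation, pups and genotype cannot be told apart.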
